A study of Mus musculus with 6 samples.

Results

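The genes of the actin cytoskeleton and the cell cortex comprised 42 genes of the 39179 Ensembl gene identifiers in the data, taken as a list of gene symbols: the cytoplasmic actins, the proteins that bind and recycle actin monomers, the Arp2/3 complex, its activators, capping and elongation proteins, bundling, side binding and motor proteins, and the proteins that link filaments to the membrane, with vimentin. All 42 were found by symbol. They were followed by RNA-Seq in germinal center (GC) B cells and in resting, or naive, B cells of the Peyer's patches of the ileum, gut lymphoid follicles in which GCs form continuously. Both populations came from female C57BL/6 mice, wild-type littermates aged 12 wk, and were sorted as Fas+GL7+ (GC) and Fas-GL7- (naive) B cells. There were 3 biological replicates per population, each of them pooled from several mice, so that differences between single animals are not seen.

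A B cell carries a thin shell of actin filaments under its membrane. Filaments grow from monomers held ready by profilin and thymosins, branch where the Arp2/3 complex is switched on by WASP and WAVE proteins, end where capping protein sits, and are taken apart by cofilin, while ezrin, radixin and moesin (the ERM proteins) tie the shell to the membrane and non-muscle myosin pulls on it. In B cells this shell restrains the antigen receptor at rest, and its remodeling accompanies antigen uptake and migration, both of which GC B cells do intensively. Loss of some of these proteins (WASP, WIP, coronin 1A, DOCK2, DOCK8, HEM1) causes human immune deficiencies.

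The deposited values were FPKM (fragments per kilobase of transcript, scaled to the mapped fragments), rescaled here to sum to 1000000 in each pool (TPM), which correct for transcript length and can therefore be compared between genes. Steps between low values put the depth at about 9900000 to 11000000 reads per GC pool and 9600000 to 16100000 per naive pool. The sort was visible in the data: Fas was at 108 to 119 TPM in the GC pools and 3.03 to 3.59 in the naive pools, all 5 GC B cell markers summed to 1138 to 1151 against 50.9 to 56.5 TPM, and the 3 naive B cell markers that could be matched, of 4 listed, to 105 to 114 against 1185 to 1227 TPM. Other cell types left a small signal. The 7 intestinal epithelial markers summed to 27.5 to 47.8 TPM in GC and 58.5 to 91.8 TPM in naive pools, the 6 myeloid and dendritic markers to 2.29 to 2.70 and 5.09 to 7.87, the 5 T cell markers to 1.65 to 3.51 and 1.72 to 2.46, and the 9 stromal, muscle and endothelial markers to 5.88 to 7.72 and 4.36 to 4.96; the collagen genes Col1a1, Col1a2 and Col3a1 did not exceed 0.166 TPM in any pool. The summed epithelial and myeloid signal was thus higher in the naive pools, though not that of every marker, and its part in the results below was not tested, except where a value is given.

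Transcripts of these genes made up nearly the same share of the total in GC and naive B cells, while single genes differed in both directions. In GC B cells fascin (Fscn1), cofilin 1 (Cfl1), Actg1 and most Arp2/3 subunits were higher, with Arpc5l and Arpc3 leading. In naive B cells calponin 3 (Cnn3), radixin (Rdx), vimentin (Vim), Vasp, ezrin (Ezr), moesin (Msn) and the myosin heavy chain Myh9 were higher. Actb, the most abundant member, did not pass the test.

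All 42 members passed the filter of at least 1 TPM in at least 3 pools, although Fscn1 and Rdx did so only through the population in which they were high. Both therefore had to differ, and their p-values describe the values and are no evidence of a change. Both are counted among the 35 and the 6 given next. Of them 35 passed the test, 19 higher and 16 lower in GC B cells, at an adjusted p under 0.05 over all genes tested (limma on log2(TPM + 1), Benjamini-Hochberg adjustment), and 7 did not. Across all 12785 genes tested, 65.6% passed, 35.5% higher and 30.1% lower in GC B cells, so that a passing member was common in this comparison. Most members were also abundant, where passing was more frequent still: with a mean of at least 50 TPM, 32 of 39 members passed, against 77.3% of all genes at that level. Differences among the members were small. Of the 35, only 6 differed by at least 1 on the log2 scale, which is 14.3% of the members against 25.4% of all genes, and at a mean of at least 50 TPM this held for 4 of 39 members against 22.5% of genes. The median size of the log2 fold change, regardless of sign, was 0.36 over the members and 0.54 over all genes, and the signed median was 0.02 and 0.03. The pools of both populations did not overlap for 35 members, which compares with 70.7% of all genes. Under a correction for the GC content and length of transcripts the counts of members became 15 higher and 19 lower, with the median of all genes moving from 0.031 to -0.079. The p-values measure the spread between 3 pools of each population, and in these bulk samples fewer cells of a type and less RNA per cell cannot be told apart.

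**Figure D1:**
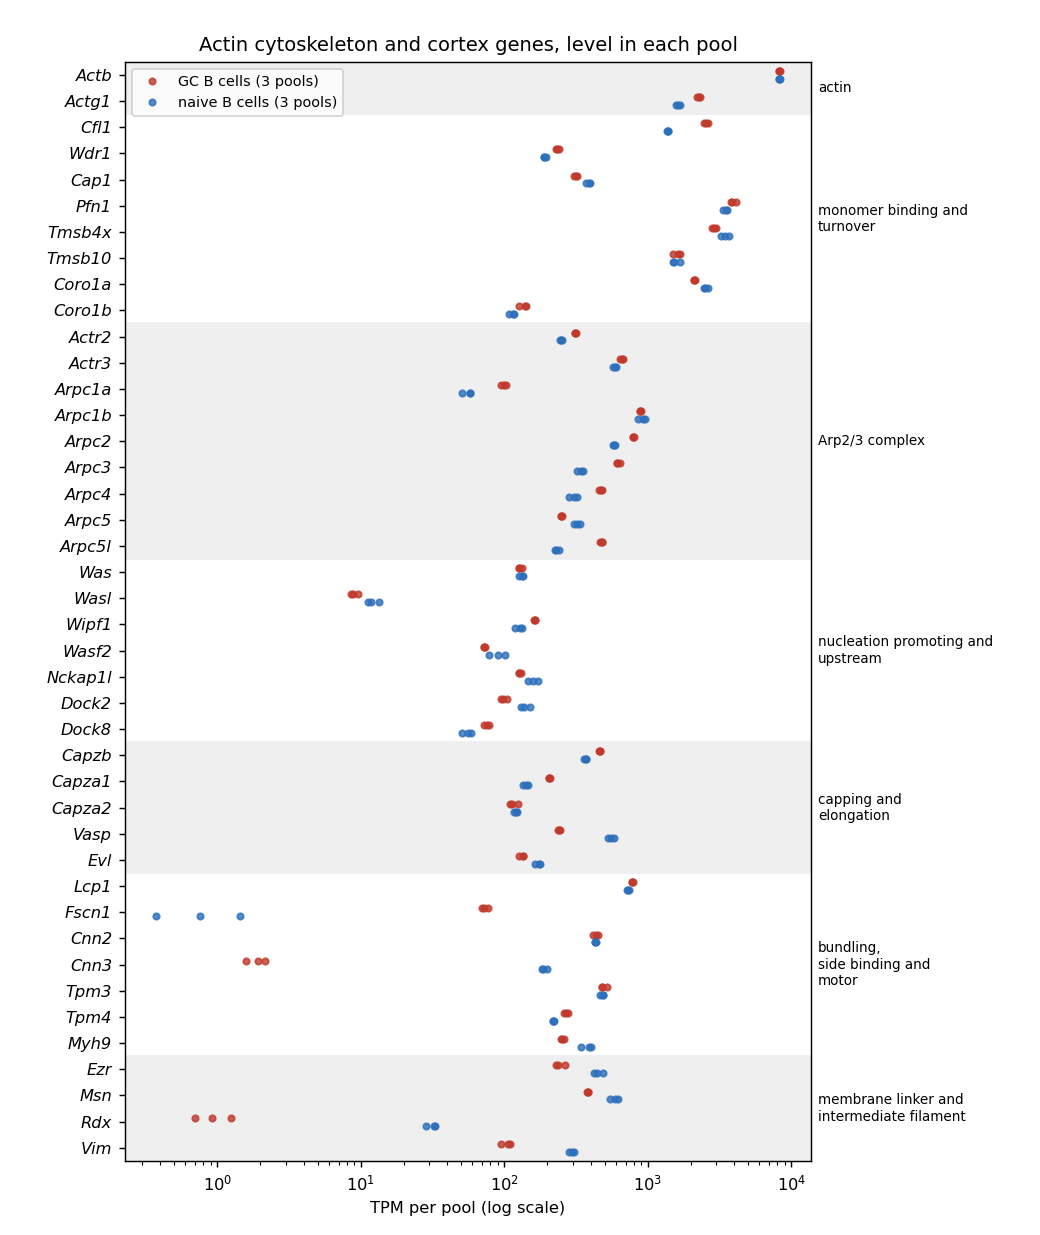
Level of each of the 42 genes in each pool, in TPM on a log axis, by role, with GC B cells in red and naive B cells in blue (3 pools each). Points of a gene lie close together within a population, and Fscn1 (70.4 to 77.3 against 0.37 to 1.44 TPM), Cnn3 and Rdx are the genes whose populations lie farthest apart.

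**Figure D2:**
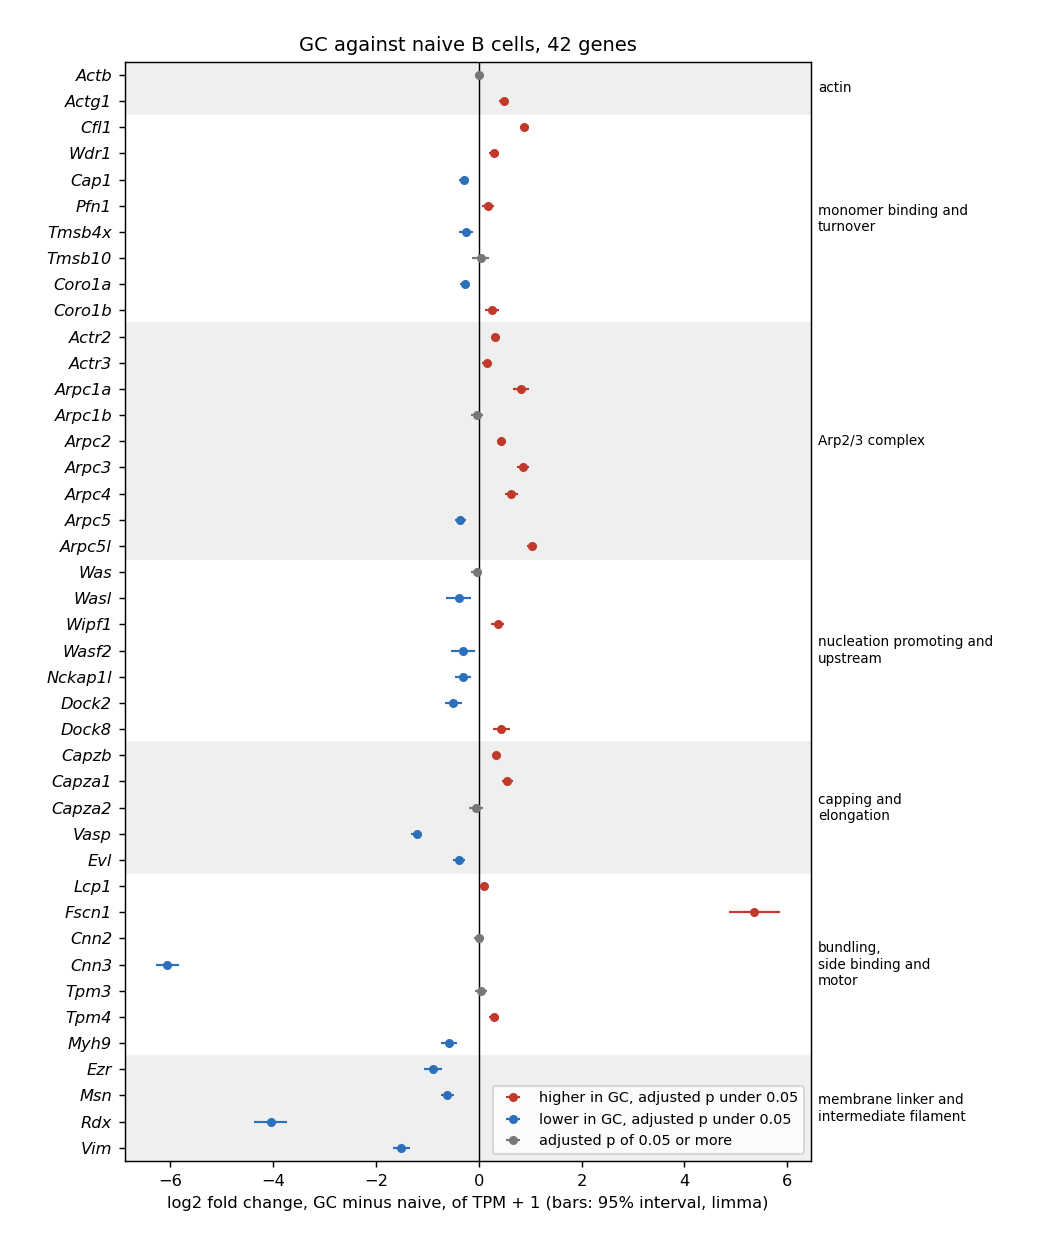
Fold change of GC over naive B cells for each gene as the difference in log2(TPM + 1), with the 95% interval from limma, by role; red and blue mark genes that passed the test and gray those that did not. Most values lie between -1 and 1, Fscn1 is at 5.36, and all 4 membrane linker and intermediate filament genes are on the negative side; among the red genes, Actr3 and Lcp1 turn negative under the correction for GC content and length, and Lcp1 also under quantile normalization.

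The promoters of 38 of the 42 members are in the RefSeq table of mouse promoters (build GRCm38.p6, 250 bases before to 50 after each start, given 5' to 3' in the direction of the gene), and Actb, Arpc5l, Coro1b and Nckap1l were not found there. The 6 motifs named next were searched on both strands of 47 windows of these genes and of all 32851 windows. Their shares were, members first, 6.38% and 13.6% for TATAAA, 25.5% and 37.4% for CCAAT, 70.2% and 35.7% for GGGCGG, 2.13% and 1.79% for TGACGTCA, 6.38% and 7.15% for CACGTG, and 6.38% and 1.63% for the CArG box, the element that serum response factor binds in many actin genes. A match is a run of letters and not a shown site. The windows of all genes were not limited to genes expressed here or to like G and C content. The differences in share are therefore not a shown trait of actin genes. Printed are the windows of the 2 genes that differed most between the populations, Fscn1 (chr5:142960105-142960404, plus strand) and Cnn3 (chr3:121426291-121426590, plus strand), those of the neighbors Arpc1a (chr5:145083619-145083918, plus strand) and Arpc1b (chr5:145114006-145114305, plus strand), and that of the actin gene that differed, Actg1 (chr11:120348446-120348745, minus strand). Capitals mark the matches on either strand, and the start site is the first base after position 250.
Fscn1: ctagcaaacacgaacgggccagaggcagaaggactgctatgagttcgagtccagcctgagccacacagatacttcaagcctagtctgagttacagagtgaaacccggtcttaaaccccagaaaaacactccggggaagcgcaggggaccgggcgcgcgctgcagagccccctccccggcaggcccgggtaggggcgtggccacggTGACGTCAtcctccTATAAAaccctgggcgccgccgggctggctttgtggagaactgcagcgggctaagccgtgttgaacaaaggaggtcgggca
Cnn3: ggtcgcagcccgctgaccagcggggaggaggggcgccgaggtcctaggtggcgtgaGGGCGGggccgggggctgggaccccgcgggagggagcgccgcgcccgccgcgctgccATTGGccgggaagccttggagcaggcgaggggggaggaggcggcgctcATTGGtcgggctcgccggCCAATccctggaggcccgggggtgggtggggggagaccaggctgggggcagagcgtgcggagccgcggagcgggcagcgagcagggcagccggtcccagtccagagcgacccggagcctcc
Arpc1a: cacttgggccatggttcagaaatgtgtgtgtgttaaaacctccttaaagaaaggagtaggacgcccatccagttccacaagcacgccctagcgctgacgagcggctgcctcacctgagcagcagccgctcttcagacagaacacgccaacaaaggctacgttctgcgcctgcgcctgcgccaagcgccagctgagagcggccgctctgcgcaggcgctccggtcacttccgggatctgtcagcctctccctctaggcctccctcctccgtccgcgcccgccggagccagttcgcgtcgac
Arpc1b: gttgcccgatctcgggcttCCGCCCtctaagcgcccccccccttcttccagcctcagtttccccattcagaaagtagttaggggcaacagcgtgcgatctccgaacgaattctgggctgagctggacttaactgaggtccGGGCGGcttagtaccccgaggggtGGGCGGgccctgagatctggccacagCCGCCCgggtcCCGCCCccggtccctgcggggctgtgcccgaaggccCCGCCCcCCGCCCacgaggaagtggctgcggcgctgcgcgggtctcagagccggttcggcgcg
Actg1: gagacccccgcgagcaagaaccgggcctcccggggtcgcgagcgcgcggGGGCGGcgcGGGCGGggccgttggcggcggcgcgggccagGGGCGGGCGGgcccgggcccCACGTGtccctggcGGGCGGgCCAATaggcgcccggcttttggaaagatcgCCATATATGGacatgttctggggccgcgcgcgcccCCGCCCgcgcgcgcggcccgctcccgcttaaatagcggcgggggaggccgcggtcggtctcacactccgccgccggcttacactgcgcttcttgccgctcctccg
The Fscn1 window holds TGACGTCA at positions 206 to 213 and TATAAA at 220 to 225, and it is the only member window with the first and 1 of 3 with the second, beside Myh9 and Vim. The Cnn3 window, at 78.3% G and C, has 3 CCAAT matches and 1 GGGCGG match. Arpc1a and Arpc1b differ, with no match in the first and 7 GGGCGG matches in the second. Actg1 has a CArG box at positions 161 to 170, as Arpc4 and Cnn2 also do, with 6 GGGCGG matches, 2 of which overlap, 1 CCAAT and 1 CACGTG.

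Of both cytoplasmic actins, which differ by a few residues at the amino end, only Actg1 passed the test. Actb (chr5:142903115-142907976 in GRCm38.p6) was at 8346, 8232 and 8266 TPM in GC and at 8314, 8249 and 8203 TPM in naive pools. These ranges overlapped, and the log2 fold change had a 95% interval of -0.07 to 0.08 (adjusted p = 0.913), although it turned to -0.15 with an adjusted p of 0.00944 under the correction for GC content and length, and its sign also turned with FPKM, with median-of-ratios scaling and without GC replicate 1 or naive replicate 3. Actg1 (chr11:120345687-120348495) was at 2319, 2291 and 2209 TPM in GC against 1665, 1576 and 1631 TPM in naive pools. Every GC pool exceeded every naive pool, by 1.40-fold on average (log2 fold change 0.48 ± 0.04 SE, adjusted p = 6.46e-05). Actg1 therefore made up 21.7, 21.8 and 21.1% of the summed actin in GC pools and 16.7, 16.04 and 16.6% in naive pools. Reads of actin genes and their many processed copies are divided by the model of the quantification tool, so this split is less certain than the sum, which was 10554 ± 98.5 TPM in GC and 9879 ± 86.3 TPM in naive pools (SD, n = 3; two-sided exact permutation test, p = 0.1, the smallest that 3 against 3 pools allow).

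Among the 8 genes that bind or recycle actin monomers, 4 were higher and 3 lower in GC B cells, with Cfl1 far ahead of the others in size. Cofilin 1 severs aged filaments. Its gene was at 2633, 2528 and 2473 TPM in GC and 1382, 1355 and 1388 TPM in naive pools, without overlap. That is 1.85-fold higher in GC (0.89 ± 0.04, adjusted p = 3.54e-06), and per 100 TPM of actin it came to 24.7, 24.0 and 23.6 in GC against 13.9, 13.8 and 14.1 in naive pools. Wdr1, whose product speeds severing by cofilin, was higher too, by 1.23-fold (0.29 ± 0.04, adjusted p = 7.84e-04), whereas Cap1, which works with cofilin at filament ends, was lower (-0.29 ± 0.04, adjusted p = 0.00101).

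The genes that hold monomers differed less. Pfn1, profilin 1, which delivers monomers to growing ends, was at 4088, 3772 and 3872 TPM in GC and 3491, 3325 and 3586 TPM in naive pools. Its 1.13-fold excess in GC (0.17 ± 0.05, adjusted p = 0.0178) no longer passed with FPKM, with median-of-ratios scaling, without the filter, under the correction for GC content and length, without GC replicate 1 or without naive replicate 1. Thymosin beta 4, encoded by Tmsb4x, keeps monomers from assembling. Tmsb4x was at 3003, 2888 and 2820 TPM in GC and 3472, 3223 and 3655 TPM in naive pools, 1.19-fold lower in GC (-0.25 ± 0.06, adjusted p = 0.00765; it did not pass with quantile normalization). The related Tmsb10 overlapped between the populations, at 1605 ± 86.7 and 1568 ± 107 TPM (interval of the log2 fold change -0.12 to 0.19, adjusted p = 0.663). Both thymosins together came to 43.9, 42.9 and 41.3 TPM per 100 TPM of actin in GC pools and to 50.1, 48.0 and 54.3 in naive pools, so that no GC pool reached a naive one, while for Pfn1 these values, 35.8 to 38.3 and 33.8 to 36.5, overlapped. Thymosin genes are short and have processed copies, which makes their levels less certain.

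The coronins, which bind filaments and work with Arp2/3 and cofilin, went opposite ways. Coro1a, the form of blood cells, was at 2094, 2134 and 2084 TPM in GC and 2473, 2622 and 2519 TPM in naive pools, 1.21-fold lower in GC (-0.27 ± 0.04, adjusted p = 7.74e-04), and the less abundant Coro1b was higher (136 ± 7.46 against 113 ± 4.97 TPM; 0.26 ± 0.06, adjusted p = 0.00809). Neither call held under quantile normalization. In order of mean level the GC pools had Actb, Pfn1, Tmsb4x, Cfl1, Actg1 and Coro1a in front, and the naive pools Actb, Pfn1, Tmsb4x, Coro1a, Actg1 and Tmsb10, followed by Cfl1. Of the neighbors in this order Pfn1 and Tmsb4x overlapped in the naive pools, as did Actg1 and Tmsb10, and no pair of neighbors among the first 6 overlapped in the GC pools.

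The Arp2/3 complex, which starts a new filament as a branch on an old one, held the largest share of higher genes among the 7 roles. Of its 9 listed genes 7 were higher in GC B cells, 1 lower and 1 did not pass, and their median log2 fold change was 0.44. Of the 7, Actr3 alone turned negative under any scaling, namely the correction for GC content and length. Their sum was 4621, 4554 and 4521 TPM in GC and 3561, 3607 and 3594 TPM in naive pools, a 1.27-fold difference without overlap (exact permutation test, p = 0.1, adjusted p = 0.133 over 8 sums, neither of which could have passed). The subunits were not raised by the same amount. Both actin-related subunits that form the start of the new filament were modestly higher, Actr2 by 1.25-fold (0.32 ± 0.04, adjusted p = 2.89e-04) and Actr3 by 1.12-fold (0.16 ± 0.04, adjusted p = 0.0106); Actr3 did not pass in 5 of the 15 alternatives and turned to -0.04 under the correction for GC content and length. Among the supporting subunits Arpc2 was 1.35-fold (0.44 ± 0.03, adjusted p = 4.85e-05), Arpc4 1.55-fold (0.63 ± 0.05, adjusted p = 9.18e-05) and Arpc3 1.82-fold higher (0.87 ± 0.05, adjusted p = 1.22e-05), of which Arpc2 did not pass once the correction for GC content and length was joined with the replicate block. For 5 subunits this list holds a single gene. Among these, the highest level within a pool was 2.54 ± 0.03 times the lowest in GC pools (SD, n = 3). In naive pools it was 2.38 ± 0.07 times the lowest.

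The other subunits are on this list as gene pairs, and in both the balance changed. Arpc5l was at 482, 481 and 463 TPM in GC and 227, 239.5 and 228 TPM in naive pools, 2.05-fold higher in GC (1.04 ± 0.04, adjusted p = 2.49e-06), while its relative Arpc5 was at 249.7, 249 and 253 TPM in GC and 319.6, 338 and 306 TPM in naive pools, 1.28-fold lower (-0.36 ± 0.05, adjusted p = 6.28e-04). Arpc5l thus supplied 65.9, 65.9 and 64.7% of the transcripts of this pair in GC pools and 41.5, 41.5 and 42.7% in naive pools: the more abundant of both genes was not the same in the populations. Summed, the pair was higher in GC, at 726 ± 8.77 against 553 ± 22.4 TPM. Arpc1a was at 98.9 ± 3.86 TPM in GC against 55.5 ± 3.86 TPM in naive pools without overlap (1.78-fold higher, 0.82 ± 0.07, adjusted p = 6.76e-05). Its partner Arpc1b overlapped, at 887 ± 8.58 and 911 ± 48.8 TPM (interval -0.15 to 0.08, adjusted p = 0.506). As Arpc1b is far more abundant in both, the share of Arpc1a moved only from 6.36, 5.69 and 5.22% in naive to 9.58, 10.1 and 10.5% in GC pools, and the pair summed to 986 ± 4.84 and 967 ± 47.5 TPM. Both genes lie side by side on the same chromosome, Arpc1a at chr5:145083869-145108756 and Arpc1b at chr5:145114256-145128186, 5499 bp apart with no annotated gene between, behind the promoter windows printed above. Actb and Fscn1 (chr5:142960355-142973189) are neighbors too, 52378 bp apart, the first not passing the test and the second much higher in GC B cells.

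**Figure D3:**
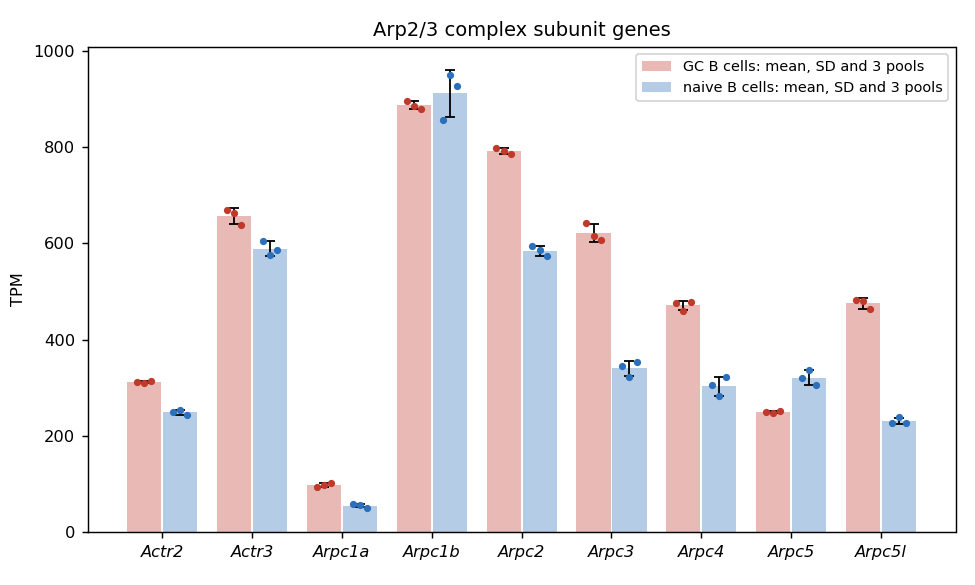
Level of the 9 Arp2/3 subunit genes in TPM, as mean (bar), SD (line) and single pools (points) of GC (red) and naive (blue) B cells, 3 pools each. The GC pools lie above the naive pools for 7 genes and below them for Arpc5, with Arpc1b overlapping; Actr3 turns negative under the correction for GC content and length.

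Genes that switch the Arp2/3 complex on were mixed. Of 7, 2 were higher and 4 lower in GC B cells, and their sum, 675 ± 6.41 and 714 ± 46.8 TPM, overlapped between the populations (exact permutation test, p = 0.4). Was, which encodes WASP, the activator of blood cells, was at 127, 132 and 126 TPM in GC and 133, 135 and 127 TPM in naive pools. It did not pass (interval -0.15 to 0.07, adjusted p = 0.502), except as lower in GC with quantile normalization. Its widely expressed relative Wasl was much rarer and lower in GC, at 8.99 ± 0.559 against 12.1 ± 1.10 TPM (-0.39 ± 0.10, adjusted p = 0.0124). Wipf1, encoding WIP, which stabilizes WASP, was higher (163 ± 0.77 against 126 ± 7.26 TPM; 0.37 ± 0.05, adjusted p = 9.36e-04). Both members of the WAVE complex on this list were lower, whereas other genes of that complex, described with the pathway list, went both ways: Nckap1l (HEM1) was at 128 ± 2.48 and 159 ± 12.6 TPM (-0.31 ± 0.06, adjusted p = 0.00526), and Wasf2 (WAVE2) at 72.3 ± 0.539 and 90.0 ± 11.7 TPM (-0.30 ± 0.10, adjusted p = 0.0286), the latter no longer passing without any 1 of GC replicates 1, 2 and 3 or naive replicates 1 and 2. Both exchange factors differed in opposite directions, Dock2, which loads Rac, lower in GC (99.0 ± 5.30 against 140 ± 9.99 TPM; -0.49 ± 0.07, adjusted p = 8.50e-04) and Dock8, which loads Cdc42, higher (75.2 ± 3.03 against 55.2 ± 4.15 TPM; 0.44 ± 0.07, adjusted p = 0.00159).

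Among the members that act at the growing end of filaments, transcripts of Capzb and Capza1 were higher in GC B cells. Those of Vasp and Evl, of the Ena/VASP family of elongation proteins, were lower. Capping genes did not all go up, as Capg of the pathway list was at 43.1 ± 0.835 TPM in GC and 582 ± 37.8 TPM in naive pools. Vasp, which protects ends from capping and extends them, was at 244, 239 and 235 TPM in GC and 532, 582 and 551 TPM in naive pools. That is 2.32-fold lower (-1.21 ± 0.04, adjusted p = 2.03e-06), and the family member Evl was 1.30-fold lower (-0.38 ± 0.05, adjusted p = 5.90e-04). Capping protein is a dimer of an alpha and a beta chain. Capzb, the only beta gene, was 1.26-fold higher (0.33 ± 0.03, adjusted p = 2.19e-04). The alpha gene Capza3, of the pathway list, was at 0 TPM in every pool. Of both alpha genes among the members, Capza1 was 1.47-fold higher (207 ± 1.27 against 141 ± 6.04 TPM, 0.55 ± 0.04, adjusted p = 6.75e-05). Capza2 overlapped (116 ± 7.34 and 120 ± 2.77 TPM, interval -0.19 to 0.08, adjusted p = 0.431). Capza1 thus made up 64.4, 62.5 and 65.6% of the alpha transcripts in GC pools and 55.6, 53.8 and 52.4% in naive pools. Capza2 passed as lower in GC with quantile normalization and with the correction for GC content and length.

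Bundling, side binding and motor genes held both extremes of the list. Fscn1 encodes fascin, which packs filaments into straight bundles and is known from dendritic cells and from lymphoid cells in some infections and lymphomas. It was at 70.4, 71.8 and 77.3 TPM in GC and at 0.76, 1.44 and 0.37 TPM in naive pools. Every GC pool was far above every naive pool, with means of 73.2 ± 3.67 and 0.86 ± 0.54 TPM, an 85.5-fold ratio that rests on a very low denominator (5.36 ± 0.21, adjusted p = 2.43e-06; adding 1 TPM understates folds of low genes). The myeloid and dendritic markers were in sum lower in the GC than in the naive pools. The dendritic cell gene Itgax overlapped, at 0.88, 0.39 and 1.45 TPM in GC and 0.80, 0.44 and 1.12 TPM in naive pools, and its highest value was in a GC pool; the part of dendritic cells in the level of Fscn1 was not tested. Cnn3 (chr3:121426541-121458205) went the other way, at 2.14, 1.58 and 1.91 TPM in GC and 184, 199 and 187 TPM in naive pools. No other member differed more, at 101-fold (-6.06 ± 0.09, adjusted p = 1.13e-07). Cnn3 encodes a calponin, a protein that binds along filaments and is best known in its smooth muscle form. The smooth muscle genes Acta2, Myh11 and Des were in the list of 9 stromal, muscle and endothelial markers. In sum this list was slightly lower in the naive pools, where Cnn3 was high, but its genes did not go the same way. Acta2 was lower in every naive pool, Myh11 and Des overlapped, and Cdh5 had its highest value, 1.05 TPM, in naive replicate 3. The part of such cells in the level of Cnn3 was not tested.

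The related Cnn2 did not pass, at 438, 448 and 416 TPM in GC and 429, 427 and 434 TPM in naive pools (interval -0.08 to 0.11, adjusted p = 0.807; its sign turned under 6 of the 15 alternatives, and it passed as lower with quantile normalization). Cnn3 therefore made up 29.96, 31.7 and 30.1% of both calponins in naive pools and 0.485, 0.351 and 0.457% in GC pools. Tropomyosins coat filaments and govern which other proteins bind them. Tpm4 was 1.23-fold higher in GC (0.30 ± 0.04, adjusted p = 6.37e-04; not under the correction for GC content and length), and Tpm3 overlapped (494 ± 22.03 and 481 ± 15.7 TPM; interval -0.08 to 0.15, adjusted p = 0.509; it passed as lower with quantile normalization and under that correction). Lcp1, the bundling protein L-plastin of white blood cells, was at 780 ± 8.66 and 729 ± 11.0 TPM and passed only narrowly (0.10 ± 0.03, adjusted p = 0.0350). It lost this call in 13 of 15 alternatives, and its sign turned with quantile normalization and under the correction for GC content and length. Myh9, the heavy chain of non-muscle myosin IIA, which contracts the cortex, was 1.49-fold lower in GC, at 254 ± 5.12 against 378 ± 30.8 TPM (-0.57 ± 0.06, adjusted p = 3.35e-04).

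All 4 membrane linker and intermediate filament genes were lower in GC B cells, under every alternative tried. They summed to 720, 756 and 712 TPM in GC and 1346, 1449 and 1295 TPM in naive pools, 1.87-fold more in naive B cells (exact permutation test, p = 0.1). ERM proteins bridge membrane proteins and actin. Rdx was at 1.24, 0.91 and 0.70 TPM in GC and 32.3, 32.7 and 28.3 TPM in naive pools, a 32.7-fold difference that left it near the filter limit in GC B cells (-4.05 ± 0.13, adjusted p = 1.31e-06). Ezr was at 230, 263 and 238 TPM in GC and 442, 491 and 425 TPM in naive pools, 1.86-fold lower (-0.89 ± 0.07, adjusted p = 7.92e-05), and Msn at 382, 383 and 379 TPM in GC and 588, 621 and 545 TPM in naive pools, 1.53-fold lower (-0.61 ± 0.05, adjusted p = 9.57e-05). In every GC pool both lay below the naive range. Together the 3 ERM genes came to 626 ± 18.1 TPM in GC and 1068 ± 73.5 TPM in naive pools. Moesin was the main form in both, at 60.9 ± 1.58% of the sum in GC and 54.7 ± 0.557% in naive pools, ezrin made up 38.9 ± 1.61 and 42.4 ± 0.659%, and radixin 0.152 ± 0.0455 and 2.91 ± 0.111% (SD, n = 3).

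Vim encodes vimentin, the intermediate filament of white blood cells and mesenchymal cells. It was at 106, 110 and 94.8 TPM in GC and 283, 304.5 and 297 TPM in naive pools, 2.85-fold lower in GC without overlap (-1.50 ± 0.07, adjusted p = 4.08e-06). Ezrin is abundant in intestinal epithelium, and vimentin in myeloid and stromal cells. The epithelial markers, each above 1 TPM in at least 1 pool, and the myeloid markers were in sum higher in the naive pools like these genes, at no more than 91.8 and 7.87 TPM in any pool, but Krt18 was lower there, at 1.38 to 2.05 against 2.88 to 3.78 TPM in GC pools. The stromal list was not higher in the naive pools, and its 3 collagens were near 0. The part of these cells in the levels of Ezr and Vim was not tested.

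Ratios of related genes within a pool do not depend on the scaling between pools. For 12 pairs of relatives among the members, all 12 log2 ratios separated the GC from the naive pools without overlap, each with the smallest p that 3 against 3 pools allow (two-sided exact permutation test, p = 0.1, adjusted p = 0.1 over the 12 pairs), so that no pair could have passed. The share of separated ratios among other pairs of genes was not computed, and since 70.7% of all single genes were separated as well, the count says nothing particular about these pairs. The difference of GC minus naive in log2 ratio was 6.68 for Cnn2 over Cnn3 and -4.45 for Rdx over Msn. It was -1.40 for Arpc5 over Arpc5l, -0.87 for Arpc1b over Arpc1a, -0.83 for Vasp over Evl and 0.61 for Capza1 over Capza2. Smaller shifts were measured for Coro1a over Coro1b (-0.53), Actb over Actg1 (-0.48), Was over Wasl (0.39), Tmsb4x over Tmsb10 (-0.28), Ezr over Msn (-0.28) and Tpm3 over Tpm4 (-0.26). In only 1 pair, Arpc5 and Arpc5l, did the more abundant gene change.

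**Figure D4:**
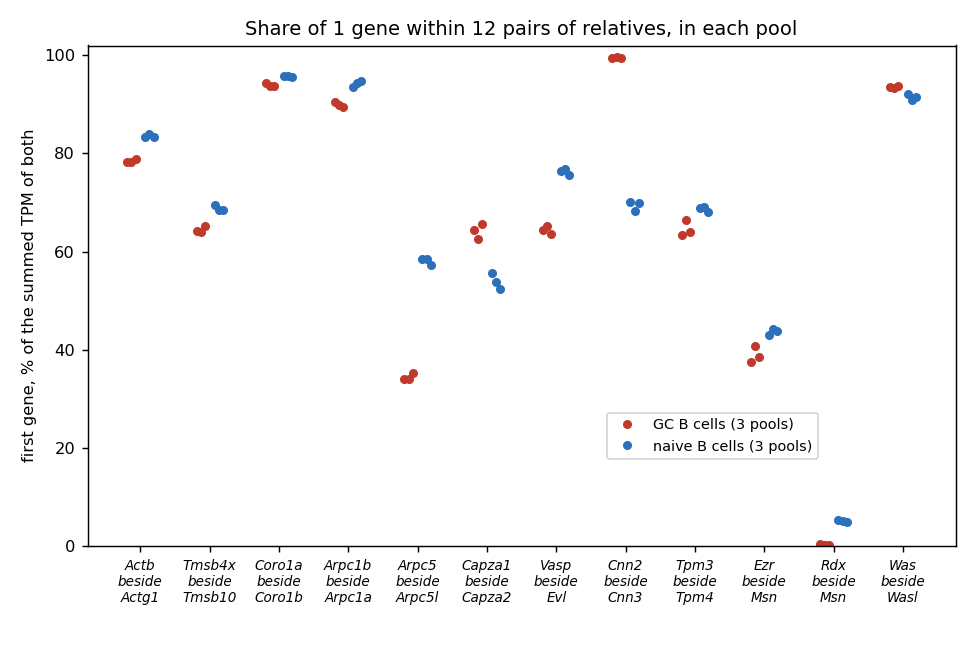
Share of the first gene in the summed TPM of each of 12 pairs of related genes, in percent, in each pool of GC (red) and naive (blue) B cells. In every pair both sets of 3 pools are apart, and Arpc5 passes from 57.3 to 58.5% in naive to 34.1 to 35.3% in GC pools.

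Over all 42 genes the sum was 34328, 33636 and 33260 TPM in GC and 32438, 32185 and 32618 TPM in naive pools, or 3.37 and 3.24% of all transcripts. The GC pools were above the naive pools by 1.04-fold (exact permutation test, p = 0.1), but this difference of 1327 TPM depends on scaling. With FPKM as deposited the sums differed by 89.4 FPKM (exact permutation test, p = 1), and with median-of-ratios scaling by 387 (p = 0.7 by the same exact test). By role the GC to naive ratio of the sum was 1.27 for the Arp2/3 complex, 1.07 for actin and 1.05 for monomer binding and turnover (the last overlapping, exact permutation test, p = 0.2). It was 0.85 for capping and elongation, 0.95 for bundling, side binding and motor genes and 0.54 for membrane linkers with vimentin.

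Other genes of the actin pathway, 136 in all, were read alongside the members. Of these 115 passed the filter and 87 the test, 35 higher and 52 lower in GC B cells, which is 75.7% of those tested against the 65.6% of all genes given above, and 35 differed by at least 1 on the log2 scale (30.4% against 25.4%). Formins and other nucleators, which start unbranched filaments, held the 3 largest log2 fold changes upward. Like Fscn1 and Rdx among the members, Daam1, Diaph3, Cobl, Spire1, Abi2 and Svil passed the filter only through the population in which they were high, so that they had to differ. Daam1, Diaph3, Cobl and Spire1 are among the 5 higher genes of the formin group counted next. That count, and the p-values of genes that had to differ, therefore describe the values and are no evidence of a change in the group. Of 9 tested, 5 were higher, all 5 by at least 1 on the log2 scale, and 3 lower: Daam1 was at 18.4 ± 0.643 TPM in GC and 0.703 ± 0.230 TPM in naive pools (3.51 ± 0.13, adjusted p = 2.15e-06), Diaph3 at 15.4 ± 0.542 and 0.547 ± 0.218 TPM (3.42 ± 0.14, adjusted p = 2.93e-06), and the nucleator Cobl at 15.8 ± 1.32 and 0.728 ± 0.617 TPM (3.34 ± 0.26, adjusted p = 5.58e-05). In the group of the WAVE complex, WASP relatives and cortactins 6 of 12 were higher and 4 lower, led by the WAVE complex gene Abi2 at 10.4 ± 0.166 against 0.664 ± 0.0461 TPM (2.78 ± 0.10, adjusted p = 1.87e-06). Of the other genes of that complex, chosen here after their values were seen, Cyfip2 (1.35), Abi1 (0.27) and Brk1 (0.28, which turned negative under the correction for GC content and length) were higher by the log2 fold change given, and Cyfip1 (-0.55) and Abi3 (-0.54) were lower.

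In the groups that follow, all but the myosins had more genes lower than higher in GC B cells. Of 21 genes for cofilin regulation, severing and monomer binding, 5 were higher and 10 lower, among them Capg, a capping protein of the gelsolin family, at 43.1 ± 0.835 TPM in GC and 582 ± 37.8 TPM in naive pools (-3.72 ± 0.06, adjusted p = 1.13e-07), and Svil, supervillin, at 0.447 ± 0.191 and 9.21 ± 1.02 TPM (-2.82 ± 0.15, adjusted p = 1.02e-05). Crosslinkers and side binding proteins numbered 5 higher and 7 lower of 16, with Marcks, which binds filaments at the membrane, at 2.97 ± 0.188 and 37.4 ± 2.004 TPM (-3.27 ± 0.09, adjusted p = 5.23e-07). Among 14 myosin genes and regulators 5 were higher and 4 lower, and the regulatory light chain gene Myl12b was at 138 ± 16.3 and 715 ± 8.93 TPM (-2.38 ± 0.08, adjusted p = 1.71e-06), like the heavy chain Myh9 lower in GC. Its near-identical copy Myl12a was at 282 ± 6.84 and 331 ± 11.5 TPM, and how reads were divided between both is uncertain. Of 12 adhesion and membrane link genes 2 were higher and 7 lower, Zyx, the focal adhesion protein zyxin that recruits Vasp, being at 7.66 ± 1.40 and 46.3 ± 1.10 TPM (-2.46 ± 0.13, adjusted p = 9.06e-06).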

How the data were processed

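RNA-Seq of 6 pools of sorted B cells, 3 GC and 3 naive, was analysed. The authors trimmed adapters with cutadapt 1.9, ran RSEM 1.2.25 against mouse transcripts (NCBIm38 v75), and deposited FPKM per Ensembl gene. RSEM divides reads among related genes by a model, so relatives with near-identical transcripts are less certain. TPM was computed here by scaling the FPKM of each pool to a sum of 1000000. Depth, and with it the precision of low values, is approximate, since 62.5 to 66.8% of low values came within 0.1 of a whole read, so no count test was run.

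Genes that reached 1 TPM in 3 or more of the 6 pools were compared without pairing with limma 3.58.1 in R 4.3.3 (lmFit, eBayes with a trend) on log2(TPM + 1), at a Benjamini-Hochberg adjusted p under 0.05 over all genes, after the script was tested on simulated data. Sums and ratios were compared with a two-sided exact permutation test over pools. Other steps used Python 3.11.15, pandas 2.3.3, numpy 2.4.6, scipy 1.17.1 and matplotlib 3.10.9. Symbols came from the annotation of NCBIM37, which named 33398 of 39179 identifiers, and positions and promoters from RefSeq (GRCm38.p6), matched by symbol. Members, lists and tests were chosen with earlier results of these data known. By rule, values in every pool are given for members past the threshold with a log2 fold change of at least 1 and for the 6 of highest mean TPM, and relatives with their ratio. Of the other pathway genes, the 3 largest changes in each direction and the largest of each group are named. Some genes and groups under this rule are not reported here. Further pool values (Ezr, Msn, Cnn2, Was and Arpc5) were added after they were seen. Alternatives covered the pseudocount, filters, FPKM as deposited, median-of-ratios scaling, quantile normalization, GC content and length, a replicate block, and dropping each pool in turn. Protein sequences were not used here.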

Additional observations from a re-analysis of the deposited data

How the results depend on the processing

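Of 1035 values recomputed under an alternative, 975 were taken as unchanged. For single genes this means the same direction and side of the threshold. Sums and ratios were judged by direction only, whatever their p-value, and the counts of genes stayed within 1.5 times. The replicate block cannot change the difference of a sum or ratio, so those entries counted as unchanged in advance. Among single genes, 31 values no longer passed and 4 newly passed with their sign kept. The sign changed for 25 values, some of which also lost or gained a pass. No member with a larger absolute log2 fold change than Actr3 (0.16) changed sign. With FPKM as deposited the log2 fold change became -0.0476 for Actb, -0.0174 for Tmsb10, -0.0397 for Cnn2 and -0.0136 for Tpm3. With median-of-ratios scaling these were -0.0357, -0.00557, -0.028 and -0.00175. Quantile normalization gave -0.0399 for Lcp1, -0.131 for Cnn2 and -0.104 for Tpm3. The correction for GC content and length, on 11031 genes, gave -0.153 for Actb, -0.0388 for Actr3, -0.055 for Lcp1, -0.00368 for Cnn2 and -0.11 for Tpm3, and the same values with the replicate block. Leaving out each pool in turn gave -0.00111 to 0.00961 for Actb, with -5.05e-05 without naive replicate 3, -0.00151 to 0.0897 for Tmsb10, -0.0111 to 0.042 for Cnn2, and 32 to 34 members that passed. The cause of these changes was not tested.

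Whether pools with the same number share mice is not stated, and no correlation exceeded 0.1, so the numbers were not taken as a pairing. Residuals of GC and naive pools with the same number correlated at 0.083, 0.0225 and 0.0456, those with other numbers at -0.0746 to 0.0298, and naive replicate 2 correlated best with GC replicate 3 while the other 5 pools did so with their own number. With the replicate number as a block, 7960 of all genes passed (8392 without) and 18 members were higher and 16 lower. Depth limits the values near or under 1 TPM, among them those of Fscn1, Daam1, Diaph3, Cobl and Abi2 in naive pools and of Rdx and Svil in GC pools. With 3 pools each, no exact permutation test could fall below 0.1.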
